A study of Mus musculus with 17 samples.

Results

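The genes of antigen presentation by MHC class II were followed in the thymus of 17 mice. The group holds the 8 genes H2-Aa, H2-Ab1, H2-Eb1, H2-DMa, H2-Oa, H2-Ob, Cd74 and Ciita, out of 18194 genes that the array's annotation pairs with probe sets of a single symbol. They were chosen by name, and 16 of 34958 such probe sets belong to them. Of the 8, 6 lie on chromosome 17, in the MHC region, Cd74 lies on chromosome 18 and Ciita on chromosome 16. Each gene is described by its brightest probe set (by the mean of the 17 arrays), and the remaining 8 probe sets are given beside it. The sample labels give homogenized thymus of C57Bl/6 mice as the source of the RNA, whereas the study's methods speak of homogenized thymocytes, so how much of the stroma entered is not known. Of these, 8 were Tcf1-/- mice (ΔVII/ΔVII, both copies of the Tcf1 gene carrying the ΔVII allele) with a thymic lymphoma, 4 were Tcf1-/- mice of the same genotype without a tumor, and 5 were Tcf1+/- mice (wt/ΔVII), the control group, which thus carry the ΔVII allele on 1 copy. A thymus counted as tumor-bearing by its number of cells, per the study's methods. No other allele or treatment is named for any group, and the ages of the individual mice are not given in the sources used here. No sorting of cells is described for these arrays, so a lower signal can come from fewer cells of a type or from less RNA per cell, and these cannot be told apart.

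MHC class II molecules are pairs of an alpha and a beta chain that carry peptides to the cell surface, where CD4 T cells read them. H2-Aa and H2-Ab1 encode the alpha and beta chains of the mouse molecule I-A, and H2-Eb1 encodes the beta chain of I-E, which C57BL/6 mice do not display because their alpha chain gene of I-E is defective. New molecules are held by the invariant chain (Cd74), whose last fragment is exchanged for a peptide by the chaperone DM, of which H2-DMa is the alpha chain. H2-Oa and H2-Ob encode the alpha and beta chains of DO, an inhibitor of DM. Ciita encodes a coactivator for the transcription of class II genes, and it acts through proteins bound to a conserved module of their promoters. In the thymus the molecules are found on epithelial cells, dendritic cells, B cells and macrophages, where they select developing CD4 T cells, whereas mouse thymocytes themselves carry little or none.

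RefSeq promoter windows of GRCm38.p6, running from 250 bases before to 50 bases after an annotated start, were at hand for 5 of the 8 genes. Those of H2-Aa, H2-Eb1, H2-Oa and H2-Ob are shown in part, because they hold letters of the promoter module through which Ciita is known to act. The stretches are the 120 bases that end at the base before the start, at chr17:34287824-34287943 (minus strand) for H2-Aa, chr17:34305747-34305866 (plus strand) for H2-Eb1, chr17:34092259-34092378 (plus strand) for H2-Oa and chr17:34238785-34238904 (plus strand) for H2-Ob. Each reads 5′ to 3′ on the strand of the gene. Capitals mark GCAAC, letters within the X box that RFX factors bind, and GATTGG, letters of the Y box that NF-Y binds.
H2-Aa: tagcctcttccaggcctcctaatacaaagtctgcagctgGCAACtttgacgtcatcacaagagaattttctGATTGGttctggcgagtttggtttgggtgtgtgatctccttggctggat
H2-Eb1: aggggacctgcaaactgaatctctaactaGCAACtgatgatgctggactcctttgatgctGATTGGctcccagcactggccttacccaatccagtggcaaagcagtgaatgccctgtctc
H2-Oa: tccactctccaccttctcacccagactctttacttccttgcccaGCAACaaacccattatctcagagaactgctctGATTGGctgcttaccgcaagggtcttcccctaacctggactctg
H2-Ob: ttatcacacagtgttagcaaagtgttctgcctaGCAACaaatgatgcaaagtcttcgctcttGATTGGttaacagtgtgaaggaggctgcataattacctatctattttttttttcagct
In these 4 windows GCAAC came before GATTGG on the strand of the gene, with 32, 31, 32 and 29 bases from the first letter of one to the first letter of the other in H2-Aa, H2-Eb1, H2-Oa and H2-Ob. GCAAC began 81, 91, 76 and 87 bases before the start, so that the distance varied little between a classical gene such as H2-Aa and the DO genes. A pair of these motifs at 20 to 45 bases, GCAAC first and both on 1 strand, was found in 143 of 32851 promoter windows (0.435%), while GCAAC was found on either strand in 35.2% and GATTGG in 16.1%. H2-DMa has windows at 2 starts and neither held the pair. The window of H2-Eb2, a class II gene outside the group, held it at 31 bases, and those of H2-DMb1 and H2-DMb2 held GATTGG without GCAAC on the gene's strand. The motifs and the spacing were chosen after the sequences had been seen, and a match describes letters, not a bound site.

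Signals are log2 values that the authors obtained by RMA (Robust Multichip Average), which corrects background, equalizes the distributions of arrays and combines the probes of a probe set. A difference of 1 on this scale is thus a 2-fold difference of signal. Signals of different probe sets are not levels that can be set against each other, so levels of different genes are not ranked, and sums over marker genes serve only to compare groups. Of the 18194 genes, 13756 exceeded the 40th percentile on 4 or more arrays and were tested, pair by pair of groups, with limma. A gene is called higher or lower at an adjusted p under 0.05 (Benjamini-Hochberg over all 13756 genes). All 8 genes passed this filter. Ciita was above the 40th percentile in 6 of 8 lymphomas, 4 of 4 Tcf1-/- thymi without a tumor and 3 of 5 Tcf1+/- thymi, and each of the others was above it on all 17 arrays. The arrays of lymphoma replicates 1 and 2 and of Tcf1+/- replicates 1 and 2 stood apart from the other 13, with an interquartile range of 2.93 to 3.06 against 3.49 to 3.75, so results that involve them are also given without them. Tcf1+/- replicates 1 and 2 had the 2 lowest control signals of 8 of the 8 genes. Each array is 1 mouse, and p-values refer to the spread between mice. As a check of the tissue, 0 of 8 thymocyte markers were at or below the 40th percentile on every array of any group. The Tcf1 gene itself was not analysed here.

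**Figure D1:**
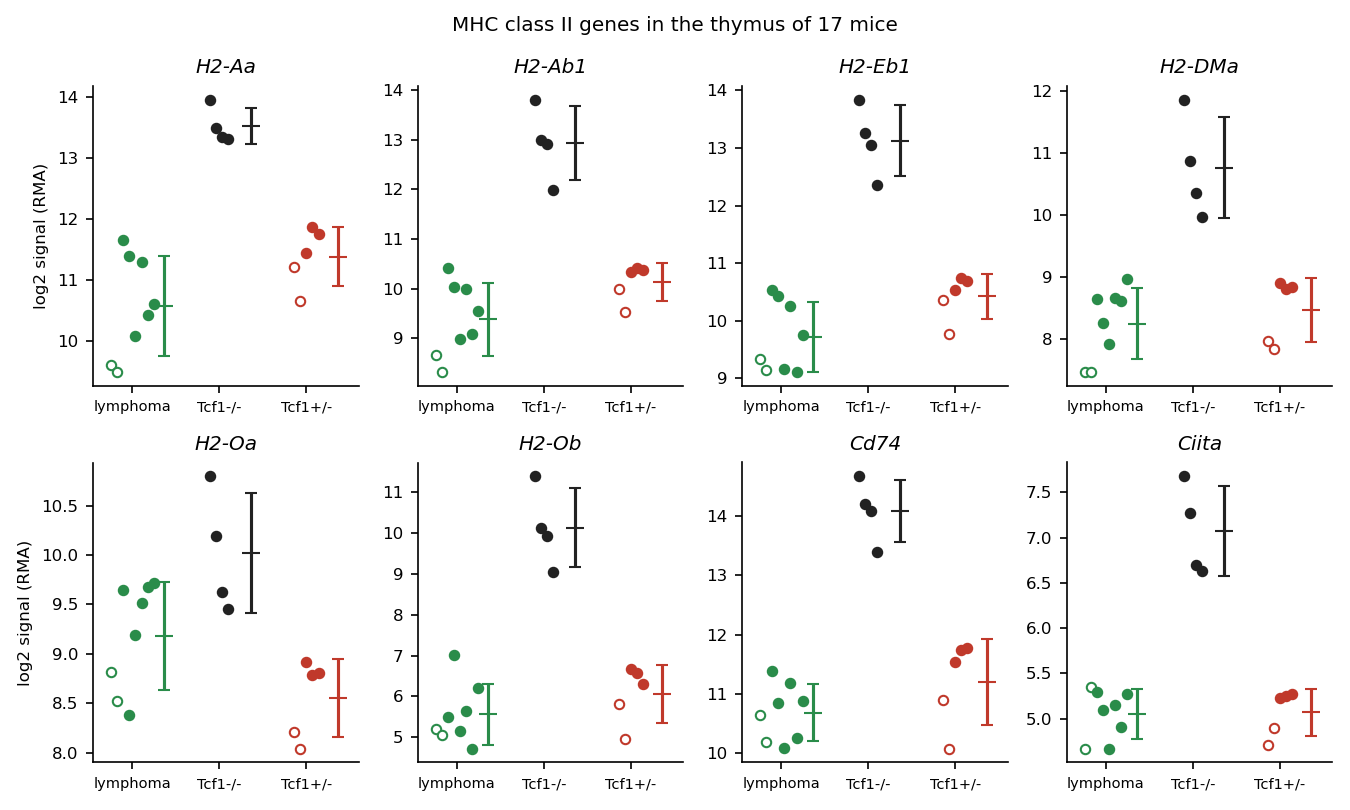
Log2 signal of each of the 8 MHC class II genes on each array (y axis), for Tcf1-/- lymphoma (green, n = 8), Tcf1-/- without a tumor (black, n = 4) and Tcf1+/- (red, n = 5), with the mean and SD beside the points. Open circles are the 4 arrays that stood apart. The Tcf1-/- points without a tumor lie above all red points in all 8 panels, and above all green points in every panel but that of H2-Oa.

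Tcf1-/- thymi without a tumor were first compared with Tcf1+/- thymi, which keep 1 wt copy. This asks how the 2 genotypes differed in the absence of a lymphoma, and no wild-type thymus was among the arrays. All 8 genes rose, by 1.47 to 4.06 on the log2 scale, in a comparison in which 10.1% of the genes tested were called higher and 4.70% lower. The lowest of the 4 Tcf1-/- thymi was above the highest of the 5 Tcf1+/- thymi for 8 of 8 genes, which held for 11.2% of the genes tested. The median log2 fold change was 2.50 for the 8 genes and -0.01 for all genes tested.

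Both chains of I-A and the beta chain of I-E rose. H2-Aa was at 13.95, 13.49, 13.34 and 13.30 in Tcf1-/- replicates 1 to 4 and at 11.20, 10.65, 11.44, 11.86 and 11.75 in Tcf1+/- replicates 1 to 5, a log2 fold change of 2.14 (standard error 0.26, limma adjusted p = 0.000502). The 4 Tcf1-/- values spanned less than the 5 control values, and the gap between the groups was wider than either span. H2-Ab1 was at 13.81, 12.99, 12.92 and 11.98 in Tcf1-/- thymi and at 9.99, 9.53, 10.34, 10.43 and 10.38 in Tcf1+/- thymi, a log2 fold change of 2.79 (standard error 0.33, limma adjusted p = 0.000502). H2-Eb1 was at 13.84, 13.26, 13.04 and 12.35 in Tcf1-/- thymi and at 10.36, 9.77, 10.54, 10.75 and 10.69 in Tcf1+/- thymi, a log2 fold change of 2.70 (standard error 0.30, limma adjusted p = 0.000358). For all 3 genes replicate 1 was the highest and replicate 4 the lowest of the Tcf1-/- thymi, and Tcf1+/- replicate 2 was the lowest control. The rise corresponds to 4.41-fold for H2-Aa, 6.93-fold for H2-Ab1 and 6.51-fold for H2-Eb1.

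The invariant chain gene Cd74 was at 14.67, 14.20, 14.08 and 13.40 in Tcf1-/- thymi and at 10.90, 10.07, 11.53, 11.74 and 11.78 in Tcf1+/- thymi. Its log2 fold change was 2.88 (standard error 0.38, limma adjusted p = 0.000809). This was above those of the 3 chains on the probe sets used, although its 95% confidence interval of 2.05 to 3.72 contained them. Dimmer probe sets exceeded it for H2-Ab1 (3.15 and 2.99) and, at 3.08 and 3.36, for H2-Aa, whose other one gave 2.52. For Cd74 the groups did not overlap, and Tcf1+/- replicates 1 and 2 lay below the other 3 controls. With these 2 arrays left out the log2 fold change of Cd74 was 2.40 (limma adjusted p = 0.0017).

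The peptide editing step held both the highest and the lowest fold change of the 8 genes. H2-DMa was at 11.86, 10.87, 10.36 and 9.96 in Tcf1-/- thymi and at 7.96, 7.85, 8.90, 8.80 and 8.84 in Tcf1+/- thymi, a log2 fold change of 2.29 (standard error 0.38, limma adjusted p = 0.003). H2-Ob, the beta chain of DO, had the highest, with 11.38, 10.12, 9.93 and 9.05 in Tcf1-/- thymi against 5.81, 4.95, 6.66, 6.57 and 6.31 in Tcf1+/- thymi. This is a log2 fold change of 4.06 (standard error 0.47, limma adjusted p = 0.000433), or 16.7-fold. H2-Oa, the alpha chain of the same heterodimer, had the lowest, with 10.80, 10.19, 9.63 and 9.46 in Tcf1-/- thymi and 8.21, 8.04, 8.92, 8.79 and 8.80 in Tcf1+/- thymi. Its log2 fold change was 1.47 (standard error 0.30, limma adjusted p = 0.00813), or 2.76-fold. The groups were separate for all 3 genes. For H2-Oa and H2-DMa, however, the lowest Tcf1-/- thymus exceeded the highest control by less than the spread among the Tcf1-/- thymi.

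Ciita, the coactivator, was at 7.68, 7.27, 6.70 and 6.63 in Tcf1-/- thymi and at 4.71, 4.89, 5.22, 5.25 and 5.28 in Tcf1+/- thymi, a log2 fold change of 2.0 (standard error 0.24, limma adjusted p = 0.000502). All 4 Tcf1-/- thymi were above the filter's percentile and the 5 control values lay on both sides of it. For each of the 8 genes the exact two-sided permutation test of the 4 against 5 arrays gave p = 0.00794, the smallest that 126 regroupings allow. Without the 4 arrays that stood apart, all 8 genes were called higher, at log2 fold changes of 1.18 (H2-Oa) to 3.60 (H2-Ob). The exact Mann-Whitney test of values relative to Abl1, after the study's methods, gave 8 of 8 genes an unadjusted p of 0.0159, the smallest it allows, and after adjustment (0.119) it called 0 of all genes.

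**Figure D2:**
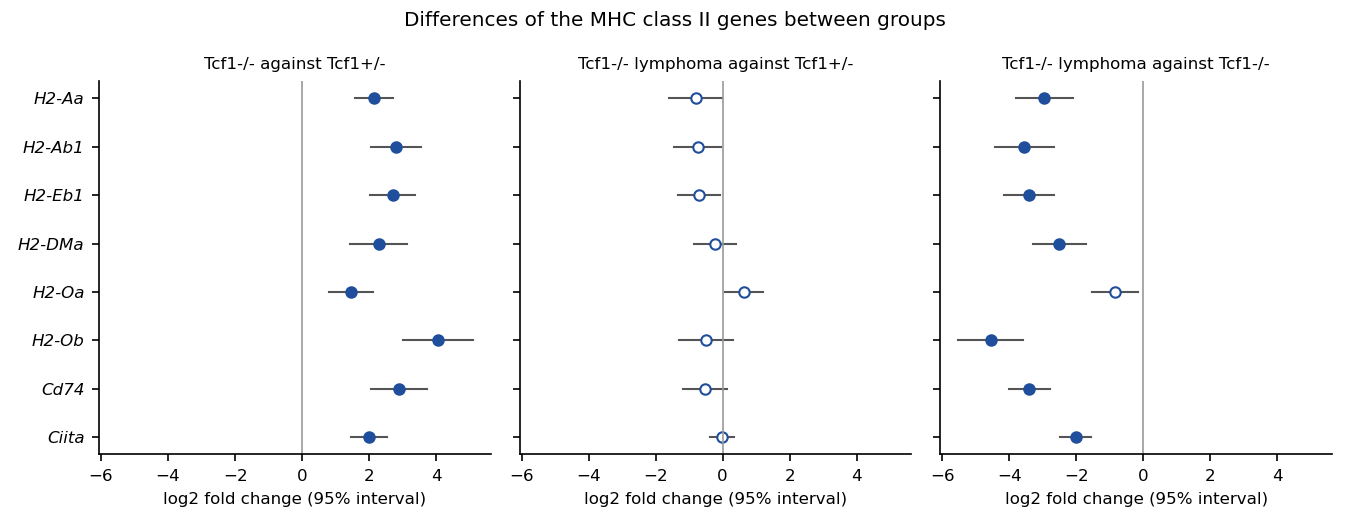
Log2 fold change of each of the 8 genes (x axis, with the 95% confidence interval of the limma fit) for the 3 pairs of groups, the first named over the second. Filled points passed an adjusted p under 0.05, which holds for 8 genes in Tcf1-/- against Tcf1+/- thymi, for 0 in lymphomas against Tcf1+/- thymi and for 7 in lymphomas against Tcf1-/- thymi.

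Lymphomas were then compared with Tcf1-/- thymi without a tumor, which share their genotype and serve in both comparisons, so that the 2 sets of fold changes are not independent. Of the 8 genes, 7 fell, and all 8 lymphomas were below the lowest Tcf1-/- thymus without a tumor for these 7. In this comparison 8.35% of the genes tested were called lower, 6.34% higher, and 6.26% were lower without overlap. The median log2 fold change was -3.18 for the 8 genes and 0.10 for all genes tested. H2-Oa was the gene that did not pass the test.

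In the lymphomas H2-Aa had a lowest signal of 9.49, a median of 10.52 and a highest of 11.66, against the Tcf1-/- values of 13.30 and above. Its log2 fold change was -2.95 (standard error 0.39, limma adjusted p = 0.000316). H2-Ab1 ranged over 8.32 to 10.42 in the lymphomas, with a median of 9.32, and fell by 3.54 (standard error 0.41, limma adjusted p = 0.000124). H2-Eb1 ranged over 9.10 to 10.53, with a median of 9.54, and fell by 3.41 (standard error 0.35, limma adjusted p = 4.72e-05). The highest lymphoma for these 3 genes was replicate 3, and it still lay below the lowest of the 4 Tcf1-/- thymi without a tumor.

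Cd74 had a lowest signal of 10.09, a median of 10.74 and a highest of 11.39 in the lymphomas, and fell by 3.40 (standard error 0.28, limma adjusted p = 1.16e-05). H2-DMa ranged over 7.47 to 8.96 with a median of 8.44 and fell by 2.51 (standard error 0.37, limma adjusted p = 0.000583). Ciita ranged over 4.67 to 5.35 with a median of 5.12 and fell by 2.02 (standard error 0.22, limma adjusted p = 7.06e-05). The lymphomas of highest signal differed between these genes, being replicate 3 for Cd74, replicate 8 for H2-DMa and replicate 2 for Ciita, and none reached a Tcf1-/- thymus without a tumor. As a ratio, Cd74 signal was 10.6-fold, H2-DMa signal 5.70-fold and Ciita signal 4.05-fold lower in lymphomas.

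The chains of DO differed in their calls here, though the difference between them was not tested. H2-Ob had a lowest signal of 4.72, a median of 5.35 and a highest of 7.02 in the lymphomas, and fell by 4.56 (standard error 0.45, limma adjusted p = 4.05e-05), or 23.5-fold. H2-Oa had a lowest signal of 8.38, a median of 9.35 and a highest of 9.72, and its log2 fold change was -0.84 (standard error 0.32, 95% confidence interval -1.53 to -0.14, limma adjusted p = 0.0984). Of the 8 lymphomas, 4 were below the lowest Tcf1-/- thymus for H2-Oa, and the other 4 lay within the range of the Tcf1-/- thymi. The exact two-sided permutation test gave p = 0.00202, the smallest that 495 regroupings allow, for each of the 7 genes that fell and p = 0.0465 for H2-Oa.

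Leaving out the 4 arrays that stood apart, the same 7 genes fell, by 2.0 (Ciita) to 4.41 (H2-Ob), and H2-Oa had a log2 fold change of -0.66 (limma adjusted p = 0.176). H2-Oa did not pass the threshold in any of the 26 alternative settings, at log2 fold changes of -1.18 to -0.58. By the exact Mann-Whitney test the other 7 genes had an unadjusted p of 0.00404, the smallest it allows, and after adjustment (0.0528) 0 of all genes were called.

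Lymphomas and Tcf1+/- thymi were compared last, which sets tumor tissue against thymi that keep 1 wt copy. In this comparison 0 of the 8 genes were called, while 8.49% of the genes tested were called higher and 4.21% lower. At an unadjusted p under 0.05 there were 4 of the 8 (H2-Aa, H2-Ab1 and H2-Eb1 with a negative and H2-Oa with a positive fold change), as against 25.6% of the genes tested. By the exact Mann-Whitney test there were likewise 4 genes at an unadjusted p under 0.05 and 0 after adjustment. The median log2 fold change was -0.51 for the 8 genes and 0.06 for all genes tested.

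The classical genes had the most negative values. H2-Aa averaged 10.57 ± 0.82 in lymphomas (SD, n = 8) and 11.38 ± 0.48 in Tcf1+/- thymi (SD, n = 5), a log2 fold change of -0.81 (95% confidence interval -1.61 to -0.01, limma adjusted p = 0.187). H2-Ab1 averaged 9.38 ± 0.74 and 10.13 ± 0.38 in the same groups, a log2 fold change of -0.75 (limma adjusted p = 0.168), and H2-Eb1 9.72 ± 0.61 and 10.42 ± 0.39, a log2 fold change of -0.71 (limma adjusted p = 0.138). None of the 8 lymphomas exceeded the highest control for these 3 genes, and 4 or 5 of them lay below the lowest control. With the array set (the 4 arrays that stood apart or the other 13) as a block, these 3 genes were called lower, at -0.97 (limma adjusted p = 0.0142), -0.89 (limma adjusted p = 0.0146) and -0.80 (limma adjusted p = 0.0303), in a fit that called 12.4% of all genes lower. With the mean signal of Y-linked genes as a covariate, their log2 fold changes were instead -0.25 (limma adjusted p = 0.762), -0.29 (limma adjusted p = 0.69) and -0.23 (limma adjusted p = 0.682).

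Cd74 had a log2 fold change of -0.52 (95% confidence interval -1.18 to 0.14), H2-DMa of -0.22 (-0.85 to 0.41), H2-Ob of -0.50 (-1.30 to 0.31) and Ciita of -0.02 (-0.37 to 0.34). These 4 intervals contain 0, and those of Cd74 and H2-Ob reach below -1. H2-Oa was the gene of positive sign, at 9.18 ± 0.54 in lymphomas (SD, n = 8) and 8.55 ± 0.40 in Tcf1+/- thymi (SD, n = 5), a log2 fold change of 0.63 (95% confidence interval 0.06 to 1.20, limma adjusted p = 0.151). Of the 8 lymphomas, 5 were above the highest control for H2-Oa, and 2 of the other 3 were replicates 1 and 2, whose arrays stood apart.

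Within the 13 arrays, all 6 lymphomas were below the 3 Tcf1+/- thymi for H2-Eb1 (9.10 to 10.53 in lymphomas, 10.54 to 10.75 in controls) and for Cd74 (10.09 to 11.39 in lymphomas, 11.53 to 11.78 in controls), which held for 9.32% of the genes tested. H2-Oa was above the highest of these 3 controls in 5 of 6 lymphomas and below the lowest in replicate 4. Within the 4 arrays that stood apart, both lymphomas were below both controls for H2-Aa, H2-Ab1, H2-Eb1 and H2-DMa and above both for H2-Oa. With 2 arrays on each side this held for 27.0% (lower) and 35.2% (higher) of the genes tested. For Cd74 the difference between the means was -0.91 within the 13 arrays and -0.07 within the 4, which hold 2 mice of each group, and these are values without a test. The exact two-sided permutation tests of the 8 against 5 arrays gave p = 0.0482 (H2-Eb1) to 0.9 (Ciita), unadjusted.

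**Figure D3:**
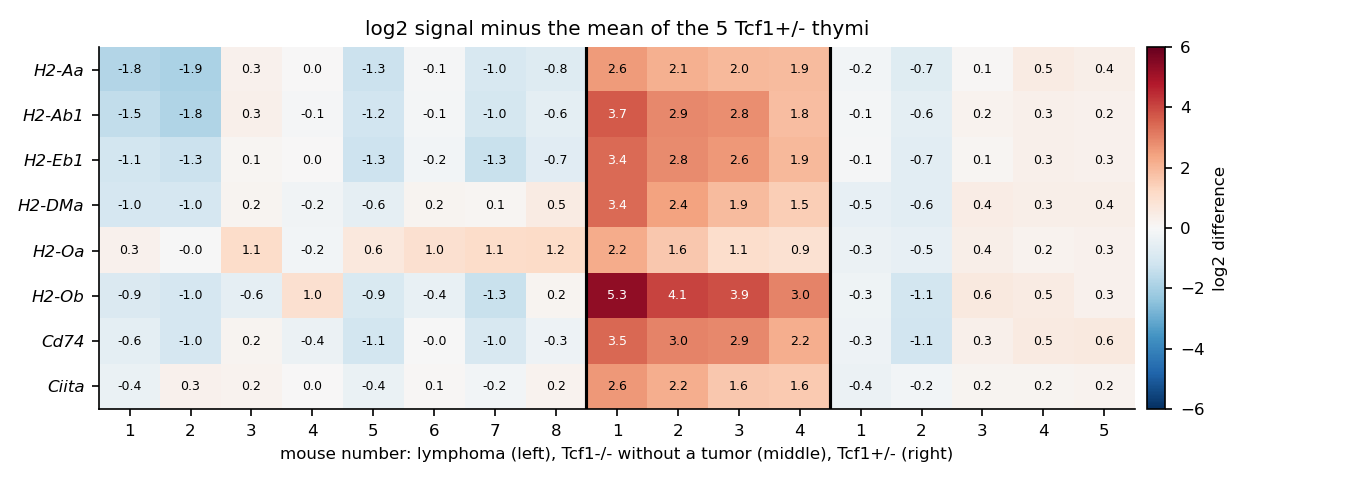
Log2 signal of each gene (rows) on each array (columns, numbered by mouse; 8 lymphomas, 4 Tcf1-/- thymi without a tumor, 5 Tcf1+/- thymi) minus the mean of the 5 Tcf1+/- thymi, with the value in each cell. The Tcf1-/- thymi without a tumor are at 0.90 to 5.32, and H2-Oa is the gene with the most lymphomas (6 of 8) above 0.

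The Tcf1-/- thymi without a tumor kept 1 order from gene to gene, which the other groups did not. In Tcf1-/- thymi without a tumor the order was replicate 1, 2, 3 and 4 from high to low for 8 of 8 genes, and the mean of the 8 genes was 3.34, 2.64, 2.34 and 1.85 above the control mean. In Tcf1+/- thymi replicates 1 and 2 were the 2 lowest for 8 of 8 genes. The highest was replicate 3 or 4 for 3 genes each and replicate 5 for 2. Lymphomas were less uniform. Replicate 3 was the highest for 4 genes, replicate 2 was among the 2 lowest for 7 genes although the highest for Ciita, and replicate 4 was the highest for H2-Ob and the lowest for H2-Oa. The mean of the 8 genes relative to the control mean ran between -0.97 (replicate 2) and 0.22 (replicate 3) in the lymphomas, and between -0.69 (replicate 2) and 0.36 (replicate 4) in the Tcf1+/- thymi.

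Once group means were subtracted, Pearson correlations over the 17 arrays ran between 0.34 and 0.95 for the 28 pairs of the 8 genes, with a median of 0.71. The points share the tissue and the differences between array sets, so these values are a description. In the 8 lymphomas alone the correlations ran between -0.28 (H2-Oa with H2-Ob) and 0.99 (H2-Aa with H2-Ab1), with a median of 0.51. In the 6 lymphomas outside the 4 arrays that stood apart, H2-Oa with H2-Ob was at -0.66 and H2-Aa with H2-Ab1 at 0.98.

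Further probe sets of the same genes gave the same directions. H2-Aa has 4 probe sets, H2-Ab1 and Ciita have 3 each, H2-DMa has 2 and the others have 1. In a fit of all 34958 probe sets, 15 of the 16 were called higher in Tcf1-/- against Tcf1+/- thymi, where 5.11% of all probe sets were, and 16 of 16 had a positive fold change. In the same fit 14 of 16 were called lower in lymphomas against Tcf1-/- thymi (5.17% of all probe sets) and 16 of 16 were negative, and in lymphomas against Tcf1+/- thymi 0 were called (of all probe sets 4.38% higher and 2.59% lower) and 15 of 16 were negative. For H2-Aa the fold change was larger for the dimmer probe sets. In Tcf1-/- against Tcf1+/- thymi it was 2.14, 2.52, 3.08 and 3.36 for probe sets with mean signals of 11.5, 11.2, 9.64 and 6.94 over the 17 arrays. H2-Ab1 gave 2.79, 3.15 and 2.99. The dim probe set of H2-DMa gave 0.88, against 2.29 for the bright one, and the dimmest of Ciita, above the 40th percentile on 1 array, gave 0.93 (limma adjusted p = 0.176). The probe set used for H2-Aa is of the kind that shares probes with other sequences, and that used for H2-Ab1 is of the kind shared by related transcripts, by the suffix of their names. A probe set annotated to both H2-Ob and a predicted gene was not used.

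**Figure D4:**
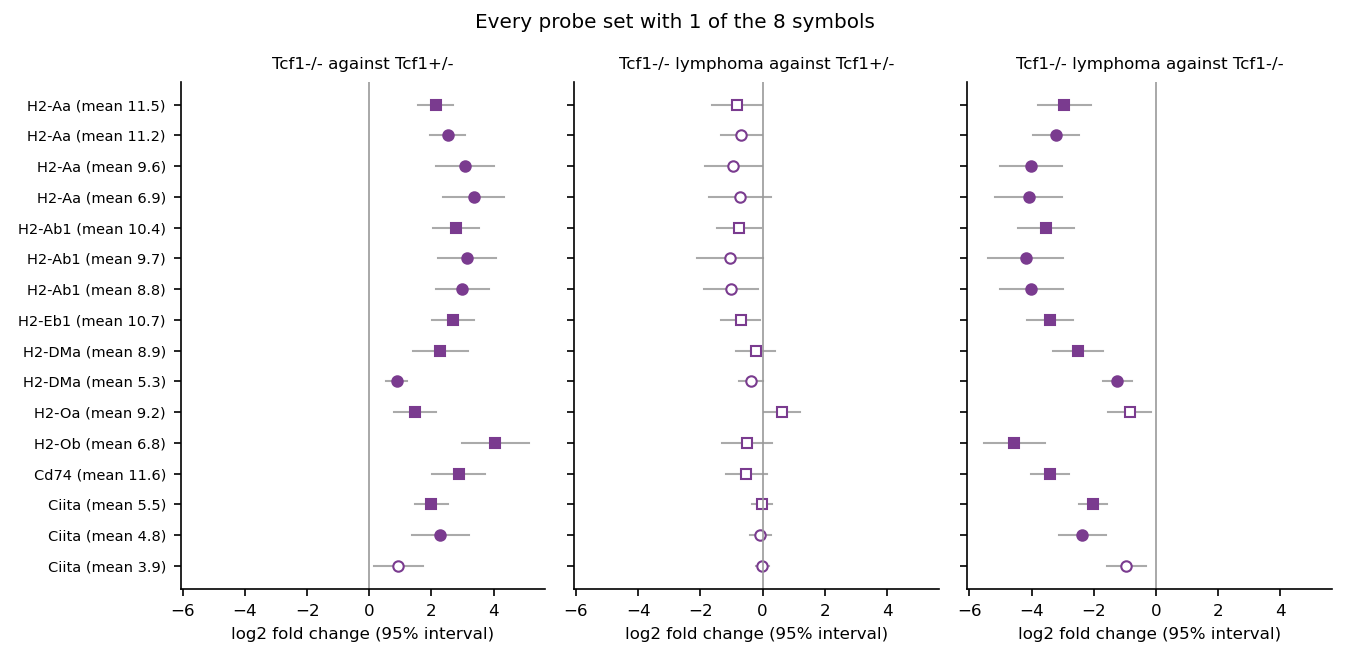
Log2 fold change (x axis, with the 95% confidence interval) of each of the 16 probe sets of the 8 genes for the 3 pairs of groups, with the mean log2 signal over 17 arrays beside the gene. Squares are the probe sets used for the gene, filled symbols passed an adjusted p under 0.05 over all probe sets. The H2-Aa fold change in Tcf1-/- against Tcf1+/- thymi runs over 2.14 to 3.36 from the brightest to the dimmest probe set.

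Other genes of the pathway were counted from lists. Of all genes tested, 10.1% were called higher and 4.7% lower in Tcf1-/- against Tcf1+/- thymi. These shares were 6.34% and 8.35% in lymphomas against Tcf1-/- thymi, and 8.49% and 4.21% in lymphomas against Tcf1+/- thymi. H2-DMb2, a beta chain of DM, and H2-Eb2, a class II beta chain gene, were 2 of 2 higher in Tcf1-/- against Tcf1+/- thymi, by 3.03 (limma adjusted p = 0.000205) and 1.52 (limma adjusted p = 0.000213), and 2 of 2 lower in lymphomas against Tcf1-/- thymi. Neither was called in lymphomas against Tcf1+/- thymi. Of 8 genes for proteases and a reductase that process antigen and invariant chain, 4 rose and 0 fell in Tcf1-/- against Tcf1+/- thymi. These were Ifi30 (2.46), the thiol reductase of lysosomes, Ctss (2.29), the protease that trims the invariant chain in dendritic cells and B cells, Lgmn (2.14), an asparaginyl endopeptidase, and Ctsb (1.47). In lymphomas against Tcf1-/- thymi 0 rose and 5 fell, these 4 and Prss16, a serine protease of cortical epithelium. Against Tcf1+/- thymi 1 of the 8 fell in lymphomas, Prss16, by 1.36 (limma adjusted p = 0.0345). Ctsl, which trims the invariant chain in cortical epithelium, had a log2 fold change of -2.16 there (limma adjusted p = 0.0547). With the 4 arrays that stood apart left out, the counts of this list were 4 higher and 1 lower in Tcf1-/- against Tcf1+/- thymi, 0 and 2 in lymphomas against Tcf1+/- thymi and 0 and 4 in lymphomas against Tcf1-/- thymi. In the first of these fits 1410 of all 13756 genes were called higher and 1630 lower.

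Of Rfx5, Rfxap, Rfxank, Nfya, Nfyb, Nfyc and Creb1, which bind the X and Y boxes and recruit CIITA, 0 of 7 were called in Tcf1-/- against Tcf1+/- thymi, at log2 fold changes of -0.63 (Rfxank) to 0.18 (Nfya). At a median of -0.49 they lay below the median of all genes tested. In lymphomas against Tcf1+/- thymi Rfxank fell by 0.73 (limma adjusted p = 0.0196) and Creb1 by 0.68 (limma adjusted p = 0.0411), and in lymphomas against Tcf1-/- thymi Nfyc rose by 0.51 (limma adjusted p = 0.0415). With the 4 arrays that stood apart left out, 2 of the 7 were called lower in Tcf1-/- against Tcf1+/- thymi. That fit called 1630 of all 13756 genes lower, as against 647 with those arrays kept. Among regulators of Ciita transcription, 5 of 6 rose in Tcf1-/- against Tcf1+/- thymi, namely Irf8 (2.30), Irf4 (1.89), Spi1 (1.81), Prdm1 (1.11) and Irf1 (0.96). Prdm1 is known as a repressor of Ciita in plasma cells and the other 4 as activators of genes in myeloid or lymphoid cells. Pax5, a B-cell activator of Ciita, was the gene not called, at 0.08. In lymphomas against Tcf1-/- thymi 4 of the 6 fell, while Pax5 was not called and neither was Irf4, at -0.75 (limma adjusted p = 0.529), and in lymphomas against Tcf1+/- thymi 0 of 6 were called. Leaving out the 4 arrays that stood apart, 4 of the 6 were higher in Tcf1-/- against Tcf1+/- thymi. Irf4 ranged over 5.58 to 9.65 in the lymphomas and 5.65 to 6.79 in Tcf1+/- thymi.

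Marchf1 and Marchf8, ubiquitin ligases that remove class II molecules from the surface, rose by 2.95 (limma adjusted p = 0.000999) and 1.14 (limma adjusted p = 0.0188) in Tcf1-/- against Tcf1+/- thymi. In lymphomas against Tcf1-/- thymi Marchf1 fell by 2.68, and 0 of the 2 were called in lymphomas against Tcf1+/- thymi. Of 4 costimulation genes, 3 rose in Tcf1-/- against Tcf1+/- thymi, Cd83 (3.17), Cd86 (2.15) and Cd40 (1.98), and the same 3 fell in lymphomas against Tcf1-/- thymi. Cd83 is known to keep class II molecules at the surface by opposing MARCH1. In lymphomas against Tcf1+/- thymi Cd86 fell by 0.66 (limma adjusted p = 0.0496), a call that was lost without the 4 arrays that stood apart. Of 9 class I presentation genes, 7 rose and 0 fell in Tcf1-/- against Tcf1+/- thymi. The largest changes were those of Nlrc5 (2.28), the class I counterpart of Ciita, H2-K1 (1.74), H2-D1 (1.69) and B2m (1.19). Of these 9, 6 fell in lymphomas against Tcf1-/- thymi, and in lymphomas against Tcf1+/- thymi 0 were called.

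Most markers of B cells, macrophages and dendritic cells, which carry class II molecules, moved with the genes in Tcf1-/- thymi without a tumor. Against Tcf1+/- thymi, 8 of 9 B-cell, 11 of 11 macrophage and monocyte and 6 of 8 dendritic cell markers rose. There 0 of 10 thymic epithelial markers were called, and of all genes tested 10.1% were called higher and 4.7% lower. The summed linear signal of the B-cell markers was 7809 to 33834 in Tcf1-/- thymi and 913 to 1486 in Tcf1+/- thymi, and that of the macrophage markers 12035 to 50788 and 2422 to 5199. The dendritic cell sum was 1057 to 3444 in Tcf1-/- thymi and 664 to 723 in Tcf1+/- thymi, and the epithelial sum 1319 to 3770 and 636 to 1268. Among single markers, Ms4a1 (CD20) rose by 4.44, Csf1r by 2.83 and Itgax (CD11c) by 2.33, while Pax5 was at 0.08. The dendritic cell markers not called were Zbtb46, at -0.09 (limma adjusted p = 0.845), and Ccl22, at 0.35 (limma adjusted p = 0.523). The epithelial markers were uneven, and the epithelial sums of the groups did not overlap. Foxn1, the epithelial transcription factor, had a low signal of at most 5.35 in Tcf1+/- thymi and a log2 fold change of -0.07 (limma adjusted p = 0.881), whereas Krt8 was at 1.43 (limma adjusted p = 0.0794), Ccl25 at 1.41 (limma adjusted p = 0.0558), Psmb11 at 1.24 (limma adjusted p = 0.184) and Ly75 at 1.11 (limma adjusted p = 0.056). The mean of the B-cell markers was 4.35, 3.24, 3.02 and 2.43 above the control mean in Tcf1-/- replicates 1 to 4, the order in which the class II genes stood. The macrophage, dendritic cell and NK-cell means had this order too (3.41, 2.91, 2.84 and 2.38 for NK cells, which are not among the class II bearing cells). The epithelial means did not, at 0.35, 0.34, 0.26 and 1.02 in replicates 1 to 4, with replicate 4 the highest. The part of any of these cell types in the class II values was not tested. Further, 7 of 8 thymocyte markers fell and 3 of 3 NK-cell markers rose in this comparison. Without the 4 arrays that stood apart, the counts higher were 8 for B cells, 9 for macrophages, 4 for dendritic cells and 1 for epithelium. In that fit 1410 of all 13756 genes were called higher.

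In lymphomas against Tcf1-/- thymi, 8 of 9 B-cell, 10 of 11 macrophage, 7 of 8 dendritic cell, 4 of 10 epithelial and 3 of 3 NK-cell markers fell, the last with a median log2 fold change of -5.74, and 1 of 8 thymocyte markers rose. Against Tcf1+/- thymi, 4 of 8 dendritic cell, 1 of 10 epithelial, 3 of 3 NK-cell and 5 of 8 thymocyte markers fell in lymphomas. There 0 of 11 macrophage markers were called, and 1 of 9 B-cell markers, Blk, rose by 1.34. Of all genes tested, 8.35% were called lower and 6.34% higher in lymphomas against Tcf1-/- thymi. Against Tcf1+/- thymi these shares were 4.21% and 8.49%. With the 4 arrays that stood apart left out, the call of Blk was lost, and 2 dendritic cell, 2 epithelial, 1 macrophage, 3 NK-cell and 3 thymocyte markers fell. That fit called 747 of all 13756 genes higher and 825 lower. The dendritic cell sum was 386 to 604 in lymphomas, below all 5 Tcf1+/- thymi, and the macrophage sum was 935 to 8815, on both sides of them. The epithelial sum was 413 to 1037 and the B-cell sum 838 to 1859. Of the B-cell, macrophage and epithelial markers, 0 were at or below the 40th percentile on every lymphoma array, and 1 of the dendritic cell markers was. Lymphoma replicates 1 and 2, with the lowest means of class II genes, had the lowest macrophage means (-1.54 and -1.49 from the control mean). Both are arrays that stood apart, as are Tcf1+/- replicates 1 and 2, with the lowest control means (-0.56 and -0.61). Outside these arrays, lymphoma replicates 5 and 7 had the next lowest class II means (-0.76 and -0.56) and macrophage means of -0.20 and 0.29. Their dendritic cell means (-0.80 and -0.79) and B-cell means (-0.57 and -0.30) were the lowest of the lymphomas. Their epithelial means were -0.94 and -0.60. Here too the part of these cells was not tested.

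**Figure D5:**
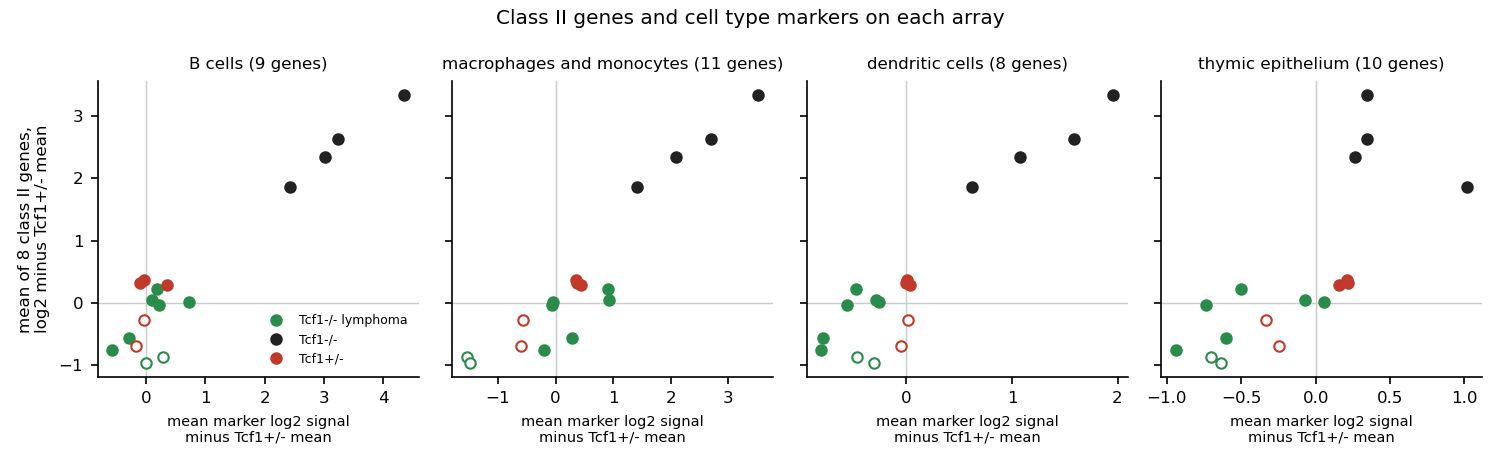
Mean of the 8 class II genes (y axis) against the mean of the markers of 4 cell types (x axes), each as log2 signal minus the mean of the 5 Tcf1+/- thymi, with 1 point for each array in green for Tcf1-/- lymphoma, black for Tcf1-/- without a tumor and red for Tcf1+/-. Open circles are the 4 arrays that stood apart. The Tcf1-/- points without a tumor are at 1.85 to 3.34 on the y axis and at 2.43 to 4.35 for B-cell markers, while their epithelial means are at 0.26 to 1.02.

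The tested genes outside the group whose pattern was most like the mean of the 8 genes were found by Pearson correlation over the 17 arrays after subtraction of the group means. They were Csf2rb2 and Parp14 (0.94 each), Btk, Phf11d, Gcnt1, Marchf1 and Plek (0.91 each) and Napsa (0.90). Over the 8 lymphomas alone their correlations were 0.82 (Napsa) to 0.95 (Parp14), and over the 13 arrays 0.86 (Gcnt1) to 0.95 (Napsa). All 8 rose in Tcf1-/- against Tcf1+/- thymi, by 1.52 (Gcnt1) to 3.55 (Napsa), and fell in lymphomas against Tcf1-/- thymi, and 0 of them were called in lymphomas against Tcf1+/- thymi. Csf2rb2 is a beta chain of the receptor for IL-3, Btk a kinase of B-cell and myeloid receptor signaling, and Napsa an aspartic protease.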

How the data were processed

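RNA from homogenized thymus per the labels (thymocytes per the study's methods), 1 array for each of 17 mice, had been labelled and hybridized to Affymetrix whole-genome mouse arrays. The deposited values are log2 signals that the authors obtained by RMA. Whether all 17 arrays were normalized together is not given in the sources used here, and array signals hold no read depth, so precision rests on how many mice there were.

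Of 45101 probe sets, 64 were controls, 34958 carried 1 gene symbol, 932 several and 9160 none. Each of 18194 genes was represented by its brightest probe set (mean of 17 arrays), and 13756 of them, those exceeding the 40th percentile on 4 or more arrays, entered the tests. Groups were taken from the sample labels and compared in pairs with limma 3.58.1 in R 4.3.3 (moderated statistics, Benjamini-Hochberg adjustment, threshold 0.05). Single genes were also compared by exact two-sided permutation tests. Tables and plots were made with Python 3.11.15, numpy 2.4.6, scipy 1.17.1, pandas 2.3.3 and matplotlib 3.10.9. The code of the fits was first run on simulated data with known changes. The study's methods name a Mann-Whitney test of values relative to Abl1, which was run as an alternative.

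All 8 genes are named with their values. From each other list (class II and DM genes, proteases and reductase, promoter factors, regulators of Ciita, turnover ligases, costimulation, class I presentation, cell type markers) counts are given, as a rule with up to 4 called genes of the largest change. Outside this rule, Csf1r was named without Lyz2, whose change was larger (3.06 in Tcf1-/- against Tcf1+/- thymi), and Irf1 was named beyond the 4. Ctsl, Irf4, Foxn1, Krt8, Ccl25, Psmb11, Ly75, Pax5, Zbtb46, Ccl22 and the members given with uncalled values were named in addition, after their values were seen. Some genes of these lists are not reported here. The genes and lists were chosen with earlier results of these data known. Alternatives covered the filter, the probe set, the scaling, the variance model, the samples in the fit, a Y-linked covariate and the array set, and the counts of the lists without the 4 arrays and the values within array sets were chosen once the data had been seen.

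Mouse numbers recur in the groups. Same-numbered lymphoma and Tcf1+/- arrays deviated together (r of 0.246 to 0.625 in 5 pairs), numbers 1 and 2 being the arrays that stood apart. The same-numbered array was the closest in 2 of these 5 pairs. The main fits and the permutation and Mann-Whitney tests were unpaired. The mouse number entered only as a replicate block in an alternative fit. In the other 2 comparisons same-numbered arrays did not deviate together (r of -0.286 to 0.12 in 4 pairs each).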

Additional observations from a re-analysis of the deposited data

How the results depend on the processing

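The counts of class II genes called were 8 in Tcf1-/- against Tcf1+/- thymi, 0 in lymphomas against Tcf1+/- thymi and 7 in lymphomas against Tcf1-/- thymi. They were the same in every run that left out 1 array (8 in 9 runs, 0 in 13 and 7 in 12) and with the mouse number as a replicate block (8, 0 and 7). By the Mann-Whitney test of values relative to Abl1, 0 genes were called in each comparison. With the array set as a block, 3 genes were called in lymphomas against Tcf1+/- thymi. The cause was not tested. That block could not be fitted in the other comparisons, since no Tcf1-/- array without a tumor stood apart.

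Signs changed in lymphomas against Tcf1+/- thymi for values that were not called. With a Y-linked covariate, which also brought H2-Aa, H2-Ab1 and H2-Eb1 to -0.25, -0.29 and -0.23, the log2 fold change was 0.0923 for H2-DMa, 0.19 for H2-Ob and 0.105 for Ciita. That of Ciita was 0.0217 after quantile normalization, 0.0007 after median centring and 0.0063 relative to Abl1 (limma and Mann-Whitney), and -0.11 to 0.0376 when 1 array was left out.

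Counts over all genes moved more. In Tcf1-/- against Tcf1+/- thymi 2037 genes were called (1390 higher, 647 lower), 1257 with the replicate block, 3040 without the 4 arrays that stood apart (1410 higher, 1630 lower), 2313 after quantile normalization (1359 and 954) and 2480 with the Y-linked covariate (1520 and 960). In lymphomas against Tcf1+/- thymi the count was 1747 (1168 and 579), 1784 with the replicate block (884 and 900), 686 in the same arrays without it, 1572 without the 4 arrays (747 and 825), 1739 after quantile normalization (1002 and 737), 3752 with the array set as a block, 1030 relative to Abl1, 1122 with the Y-linked covariate and 543 by the Mann-Whitney test. In lymphomas against Tcf1-/- thymi it was 2020 (872 and 1148), 584 with the replicate block (46 and 538), 951 in the same arrays without it, 2447 without the 4 arrays (1262 and 1185), 1305 relative to Abl1, 387 with the Y-linked covariate, 1014 without Tcf1-/- replicate 1 and 1271 without Tcf1-/- replicate 2.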
